A study of Homo sapiens with 36 samples.

Results

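Serine, glycine, folate-bound carbon units and proline are made by a short set of enzymes, and 10 of their genes were followed here: PHGDH, PSAT1 and PSPH (serine synthesis), SHMT1 and SHMT2 (serine to glycine), MTHFD2, MTHFD1L and ALDH1L2 (mitochondrial folate steps), and ALDH18A1 and PYCR1 (proline synthesis). The genes were chosen by name for these roles, with earlier results of these data known, and each symbol was matched to the NCBI gene number that names its row. All 10 had a row in both 2102EP-C1 tables, out of 17035 and 16459 genes. Of the 16431 genes measured in NT2/D1-A4 cells, 9 of the 10 were present, and PYCR1 was not analysed there.

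RNA-seq was performed on 36 libraries of cisplatin-resistant human embryonal carcinoma cells, in 3 experiments of 4 groups with 3 libraries each. NT2/D1-A4 and 2102EP-C1 are resistant derivatives of the testicular cancer lines NT2/D1 and 2102EP, and each stands for a single resistant clone. In the first pair of experiments, 1 in each line, the baseline was a vehicle control (VC in the sample titles), called control or untreated below. The other cells were exposed to cisplatin (0.5 µM, 6 h), exposed to GSK-J4 (1 µM, 3 days), or pretreated with GSK-J4 in the same way before cisplatin (combination). GSK-J4 is an inhibitor of KDM6A and KDM6B, the enzymes that remove the repressive mark H3K27me3. In the knockdown experiment, 2102EP-C1 cells carried the empty lentiviral vector pLKO.1 or shRNAs against both demethylases (sh6A+6B, 1 hairpin per gene in vectors selected with puromycin and neomycin). Each was given PBS (called untreated below) or the same cisplatin dose. All groups share a resistant background, because both lines are resistant derivatives. Cells given cisplatin were harvested the day after it. The libraries are described as biological triplicates, but nothing says that they came from separate days or passages, so the p-values measure the spread between these libraries.

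Serine synthesis branches off glycolysis. PHGDH oxidises a glycolytic intermediate, PSAT1 moves an amino group onto the product from glutamate, and PSPH removes the phosphate to give serine. SHMT2 in mitochondria and SHMT1 in the cytosol split serine into glycine and a carbon unit carried by folate. In mitochondria, MTHFD2 oxidises that unit and MTHFD1L releases it as formate for use in the cytosol, while ALDH1L2 oxidises it to carbon dioxide and yields NADPH. ALDH18A1 turns glutamate into the precursor of proline, and PYCR1 completes proline in mitochondria. Many of these genes are known targets of the transcription factor ATF4, which cells activate when amino acids run short or the integrated stress response is on.

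Positions are those of RefSeq on GRCh38.p14. PHGDH is at chr1:119711934-119744215, PSAT1 at chr9:78297125-78330093, PSPH at chr7:56011064-56051444, SHMT1 at chr17:18327873-18363550 and SHMT2 at chr12:57229711-57234935. MTHFD2 is at chr2:74198615-74217565, MTHFD1L at chr6:150865702-151101887, ALDH1L2 at chr12:105019790-105084458, ALDH18A1 at chr10:95605941-95656711 and PYCR1 at chr17:81932391-81937300. The annotation names 4 pseudogene copies of PSAT1, 7 of MTHFD2, 1 of PSPH and 1 of SHMT1, so a share of reads from these genes may have been counted elsewhere or not at all. SHMT1, SHMT2, MTHFD2, MTHFD1L and ALDH1L2 each overlap at least 1 other annotated gene. The strand setting of the count is not given in the sources used here.

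ATF4 and C/EBP proteins bind together at a core written TGATGNAA. It was searched on both strands in the 250 bases before each promoter start available for the genes, because most of them moved together below. Promoter sequences were matched for 6 genes (PHGDH, PSAT1, SHMT1, MTHFD2, MTHFD1L and ALDH18A1), and 1 of the 6 held the core. Of all 35116 promoters in the table, 3.14% held it, and of the 19242 promoters whose gene has a row in any of the tables, 1.95% did. These shares count promoters, whereas the 1 of 6 counts genes, and for MTHFD1L several promoters were searched. The starts of those MTHFD1L promoters all lie downstream of the gene start given above. The match was in MTHFD1L, at chr6:150866357-150866364 on the plus strand of GRCh38.p14. It lies 129 bases before 1 start and 90 bases before another, and inside an exon (150866333 to 150866387) of a transcript that begins further upstream. The 30 bases around it follow, with the core in capitals.
MTHFD1L: gccgccggctcTGATGCAAtcgcgccgggc
A match of letters is only a description of the window, and nothing was drawn from the windows without a match.

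The libraries held 26.8 to 49.5 M assigned reads (M, 1e6) in NT2/D1-A4 cells, 30.3 to 53.6 M in the 2102EP-C1 GSK-J4 experiment and 79.4 to 100.9 M in the knockdown experiment. Levels are given as CPM, counts per 1e6 reads at TMM-scaled library sizes, and differences as log2 fold changes with their standard error (SE). Calls needed a fold change over 1.3 together with an adjusted p under 0.05 (limma-trend, Benjamini-Hochberg over all genes). All 12 embryonal carcinoma markers had a row in each table, POU5F1 at 487 to 568 CPM in NT2/D1-A4 libraries and 611 to 747 CPM in 2102EP-C1 libraries. TDGF1 was at 10.1 to 20.3 CPM in NT2/D1-A4 cells and TNFRSF8 under 9 CPM in every library. The summed level of those 12 markers was 8656 to 8833 CPM in control and 7647 to 7812 CPM in GSK-J4 libraries of NT2/D1-A4, and 12133 to 12412 CPM against 10874 to 10967 CPM in 2102EP-C1. With GSK-J4 alone 5 of the 12 were higher and 7 lower in NT2/D1-A4, with 1 called higher and 1 lower (13.8% and 6.48% of all genes). In 2102EP-C1 the counts were 2 higher and 10 lower, with 0 called higher and 2 lower (7.79% and 3.12% of all genes). Trophoblast markers had 2 of 8 rows in NT2/D1-A4 and 3 of 8 in 2102EP-C1, and their sum was 5.74 to 7.62 CPM in control against 11.2 to 13.7 CPM in GSK-J4 libraries of NT2/D1-A4, and 5.68 to 6.04 CPM against 8.39 to 10.2 CPM in 2102EP-C1. With GSK-J4 alone 2 of 2 trophoblast markers were called higher in NT2/D1-A4 and 3 of 3 in 2102EP-C1. Neural and mesoderm markers summed to 33.8 to 37.4 CPM in control and 42.3 to 47.5 CPM in GSK-J4 libraries of NT2/D1-A4 (9 of 10 rows), and 46.0 to 49.1 CPM against 55.8 to 62.3 CPM in 2102EP-C1 (8 of 10 rows). Of these markers 5 of 9 were called higher in NT2/D1-A4 and 2 of 8 in 2102EP-C1, and none lower. In pLKO.1 and sh6A+6B libraries the embryonal carcinoma sum was 11348 to 11364 CPM and 10695 to 10725 CPM. There 6 of the 12 markers were higher and 6 lower with sh6A+6B, and 1 was called higher, as were 1044 of 16459 genes. Of the trophoblast markers 1 of 3 was called higher with sh6A+6B. Of the neural and mesoderm markers 2 of 8 were called higher and 1 lower, where 945 of 16459 genes were called lower. Yolk sac markers summed to 2.22 to 2.85 CPM in control and 4.08 to 4.74 CPM in GSK-J4 libraries of NT2/D1-A4 (2 of 9 rows, both called higher), and 10.7 to 11.2 CPM against 10.8 to 11.4 CPM in 2102EP-C1 (3 of 9 rows, 2 called higher). Stroma and blood markers (2 of 8 rows) stayed under 10 CPM in every library and none was called with GSK-J4, and no marker with a row was at 0 in all libraries of a group. The part of these marker shifts in the differences below was not tested.

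In untreated cells PSAT1 was the most abundant of the transcripts per length. Per kilobase of its canonical transcript it reached 284 ± 4.91 CPM (SD, n = 3) in NT2/D1-A4, followed by PHGDH (71.0 ± 1.60), MTHFD2 (63.5 ± 1.51), ALDH18A1 (59.9 ± 0.281), MTHFD1L (42.9), SHMT2 (35.7 ± 0.881), SHMT1 (27.1) and PSPH (16.0 ± 0.539). The SD of MTHFD1L and SHMT1 was 1.298 and 1.302. ALDH1L2 was far below these at 0.472 ± 0.0656 CPM per kilobase. In 2102EP-C1 control cells the order again began with PSAT1 (183 ± 4.02) and PHGDH (106 ± 0.865) and ended with PYCR1 (7.88 ± 0.214) and ALDH1L2 (0.892 ± 0.123), and SHMT2 took the place after PHGDH (75.2 ± 2.73). ALDH18A1 (54.9 ± 0.462) and MTHFD2 (53.2 ± 1.12) were neighbours in that order whose values differed by little more than their spread.

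**Figure D1:**
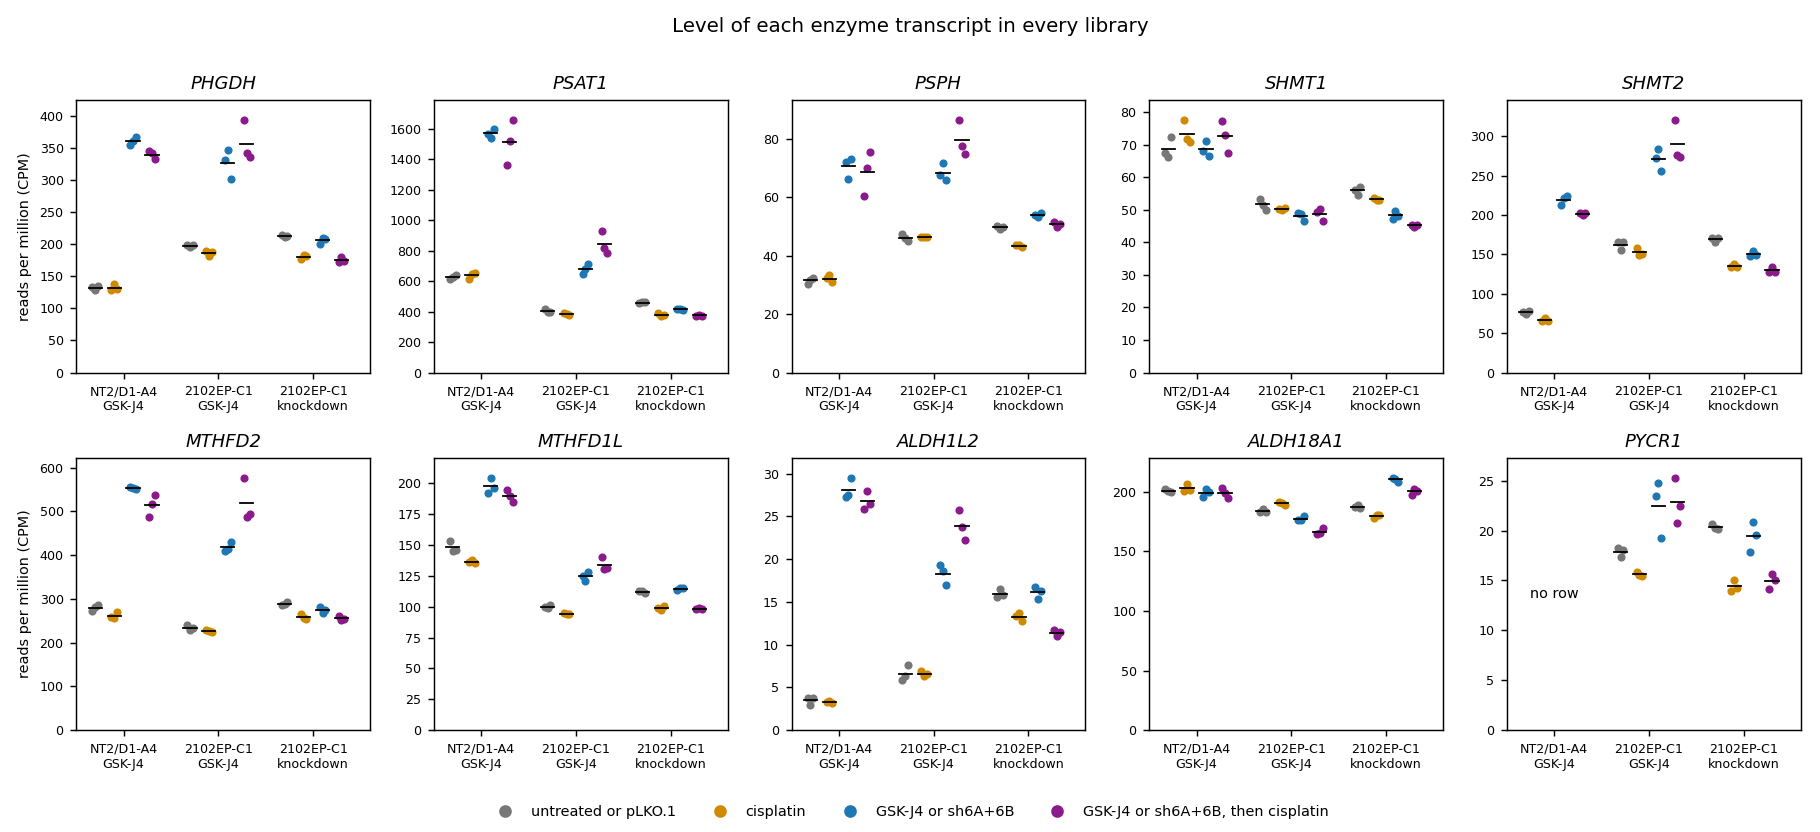
Level of each of the 10 transcripts in CPM (linear axis from 0) in all 36 libraries, grouped by experiment, where each point is a library, each bar the mean of 3 and PYCR1 has no row in NT2/D1-A4. In the NT2/D1-A4 and 2102EP-C1 GSK-J4 experiments the blue and purple points of PHGDH, PSAT1, PSPH, SHMT2, MTHFD2, MTHFD1L and ALDH1L2 lie above the grey and orange ones, while SHMT1 and ALDH18A1 stay near 68.6 and 201 CPM in NT2/D1-A4 and the knockdown experiment shows no such step.

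GSK-J4 alone raised PHGDH, PSAT1, PSPH, SHMT2, MTHFD2 and ALDH1L2 in both resistant lines and MTHFD1L in NT2/D1-A4, and SHMT1 and ALDH18A1 were not called in either line. In NT2/D1-A4 cells 7 of 9 genes were called higher and none lower, in a comparison where 13.8% of all genes were called higher and 6.48% lower. In 2102EP-C1 cells 6 of 10 were called higher and none lower, against 7.79% of all genes higher and 3.12% lower. The median log2 fold change of the measured genes was 1.16 in NT2/D1-A4 and 0.64 in 2102EP-C1, and the median of all genes was 0.01 and 0.00. In bulk RNA, more cells that express a gene and more of its RNA per cell cannot be told apart.

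PHGDH, which commits carbon to serine, was at 133, 129 and 135 CPM in the NT2/D1-A4 control libraries and at 355, 361 and 367 CPM with GSK-J4. The groups did not overlap, and the log2 fold change was 1.44 (SE 0.03, adjusted p = 2.74e-16). In 2102EP-C1 cells PHGDH was at 198, 196 and 199 CPM in control and at 332, 347 and 302 CPM with GSK-J4, a log2 fold change of 0.72 (SE 0.05, adjusted p = 2.22e-12). PSAT1, the aminotransferase of the pathway, had the highest level of the set and stood at 616, 623 and 638 CPM in NT2/D1-A4 control libraries. With GSK-J4 it was at 1566, 1540.3 and 1597 CPM, a log2 fold change of 1.32 (SE 0.05, adjusted p = 1.67e-13). In 2102EP-C1 cells PSAT1 went from 414, 399 and 398 CPM to 646, 678 and 711 CPM (log2 fold change 0.75, SE 0.04, adjusted p = 2.56e-13). PSPH, the last step to serine, was at 30.3, 31.8 and 32.4 CPM in NT2/D1-A4 control libraries and at 72.2, 66.2 and 73.2 CPM with GSK-J4. Its log2 fold change was 1.16 (SE 0.06) there and 0.56 (SE 0.05) in 2102EP-C1, where 47.4, 46.0 and 45.1 CPM became 67.5, 71.6 and 65.8 CPM. All 3 serine synthesis genes were thus called higher in both lines.

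SHMT2 and SHMT1, the enzymes that split serine, behaved differently from each other. SHMT2, the mitochondrial form, was at 77.3, 74.9 and 78.7 CPM in NT2/D1-A4 control libraries and at 213, 221 and 224 CPM with GSK-J4 (log2 fold change 1.51, SE 0.04, adjusted p = 2.74e-16). In 2102EP-C1 cells it was at 166, 155 and 165 CPM in control and at 273, 284 and 256 CPM with GSK-J4 (log2 fold change 0.74, SE 0.05, adjusted p = 1.36e-12). SHMT1, the cytosolic form, was at 67.3, 66.1 and 72.3 CPM in NT2/D1-A4 control libraries and at 68.0, 71.2 and 66.6 CPM with GSK-J4, and these groups overlapped. Its log2 fold change was 0.00 with a 95% interval of -0.11 to 0.11 in NT2/D1-A4, and -0.10 with an interval of -0.19 to -0.02 (adjusted p = 0.0524) in 2102EP-C1. The intervals of SHMT1 and SHMT2 did not overlap in either line.

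ALDH1L2 showed the widest difference of the set. Its NT2/D1-A4 control libraries were at 3.81, 2.94 and 3.76 CPM, and the GSK-J4 libraries at 27.3, 27.5 and 29.5 CPM. The log2 fold change was 2.98 (SE 0.09, adjusted p = 2.94e-15), and the gene lay at percentile 99.9 of all genes in that comparison. In 2102EP-C1 cells ALDH1L2 was at 5.88, 6.35 and 7.64 CPM in control and at 19.3, 18.6 and 17.0 CPM with GSK-J4 (log2 fold change 1.46, SE 0.08, adjusted p = 2.06e-13). MTHFD2, the mitochondrial dehydrogenase, was at 273, 281 and 286 CPM in NT2/D1-A4 control libraries and at 555, 554 and 552 CPM with GSK-J4, a log2 fold change of 0.99 (SE 0.04). In 2102EP-C1 cells it was at 239.6, 229.9 and 233 CPM and became 409.8, 413 and 431 CPM (log2 fold change 0.83, SE 0.04, adjusted p = 2.10e-14). MTHFD1L, the formate-releasing step, moved least of these 3. It was at 153, 145 and 146 CPM in NT2/D1-A4 control libraries and at 192, 204 and 196 CPM with GSK-J4, a log2 fold change of 0.41 (SE 0.04, adjusted p = 2.27e-08). In 2102EP-C1 cells its log2 fold change of 0.32 (SE 0.04, adjusted p = 7.48e-08) was under the 1.3-fold limit, with 99.3, 99.2 and 101 CPM in control and 125, 120.5 and 128 CPM with GSK-J4.

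The proline branch gave no call with GSK-J4 alone. ALDH18A1, the first enzyme of proline synthesis, was at 202, 201 and 200.2 CPM in NT2/D1-A4 control libraries and at 196, 202 and 199.8 CPM with GSK-J4, a log2 fold change of -0.01 with a 95% interval of -0.08 to 0.05. In 2102EP-C1 cells its log2 fold change was -0.05 with an interval of -0.11 to 0.01. PYCR1, the last enzyme of proline synthesis, was at 18.2, 17.3 and 18.1 CPM in 2102EP-C1 control libraries and at 23.4, 24.7 and 19.3 CPM with GSK-J4. Every GSK-J4 library lay above every control library, but the log2 fold change of 0.32 (SE 0.07, adjusted p = 0.00114) was under the 1.3-fold limit, and without GSK-J4 replicate 3 it was 0.43 and past it.

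**Figure D2:**
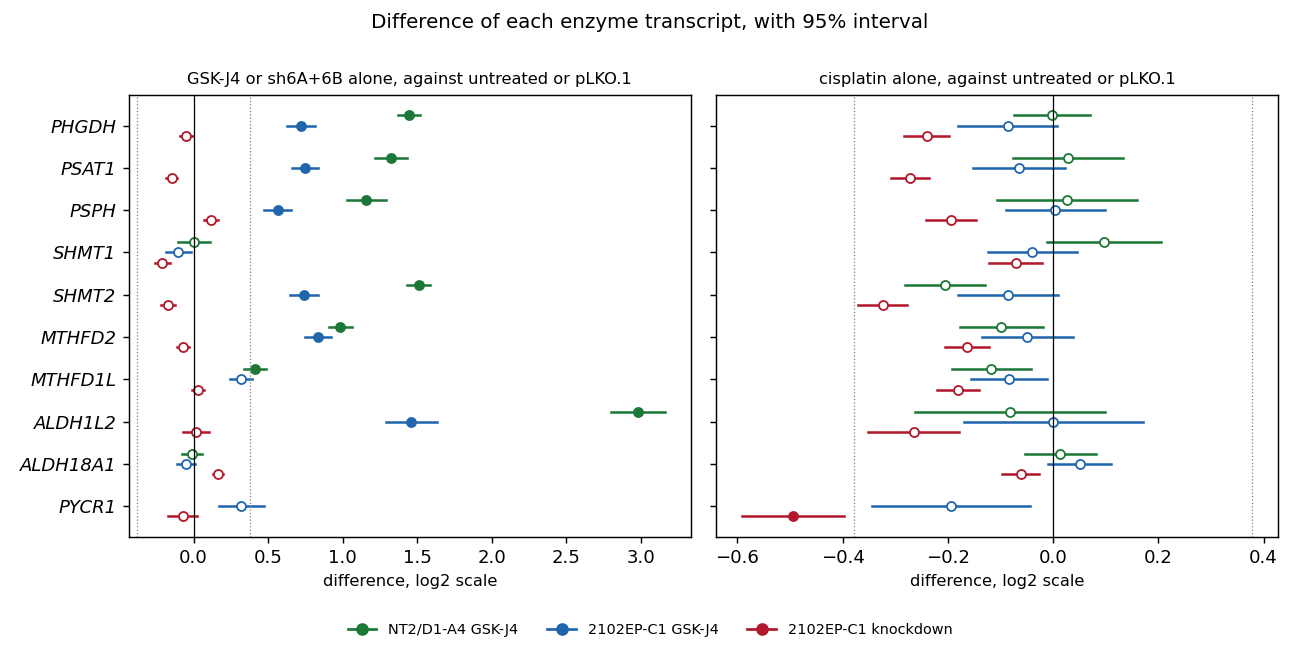
Log2 difference of each transcript with its 95% interval for GSK-J4 or sh6A+6B alone (left) and cisplatin alone (right), each against its own untreated or pLKO.1 libraries (3 against 3), in NT2/D1-A4 GSK-J4 (green), 2102EP-C1 GSK-J4 (blue) and 2102EP-C1 knockdown (red). Filled points were called, dotted lines mark a 1.3-fold change, and the axes of the panels differ: on the left ALDH1L2 reaches 2.98 and 1.46 with GSK-J4 and 0.01 with the knockdown, and on the right only PYCR1 in pLKO.1 cells is filled, at -0.49.

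In the knockdown experiment the targets themselves were checked first. KDM6A was at 143, 144 and 142 CPM in pLKO.1 libraries and at 70.7, 68.1 and 73.6 CPM in sh6A+6B libraries, a log2 fold change of -1.01 (SE 0.03, adjusted p = 2.1e-18). KDM6B was at 24.4, 25.2 and 24.7 CPM in pLKO.1 and at 11.4, 12.1 and 13.4 CPM in sh6A+6B libraries (log2 fold change -1.01, SE 0.05, adjusted p = 1.8e-14). With cisplatin KDM6A was at 154, 154 and 154 CPM in pLKO.1 and at 77.5, 77.1 and 83.5 CPM in sh6A+6B libraries, and KDM6B at 26.3, 25.5 and 25.7 CPM against 10.3, 10.8 and 11.6 CPM. Each sh6A+6B library was below every pLKO.1 library for both transcripts. GSK-J4 itself, which acts on the proteins, was followed by higher KDM6B RNA (log2 fold change 0.88, SE 0.06 in NT2/D1-A4 and 0.81, SE 0.07 in 2102EP-C1), and KDM6A was not called in either line.

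Lower demethylase transcripts came with no call in the enzyme set. With sh6A+6B alone, limma-trend called 0 of 10 genes in either direction, in a comparison where 12.1% of all genes were called. For a set of 10 a count of 0 lies near that share, and voom also called 0. At an unadjusted p under 0.05 there were 7, beside 9503 of 16459 genes. Without the fold limit 6 of the 10 had an adjusted p under 0.05, 4 lower and 2 higher, and the share of all genes at that threshold is not reported here. The differences ran from -0.21 for SHMT1 to 0.16 for ALDH18A1 on the log2 scale, with a median of -0.06. PSAT1 was at 453, 459 and 460.3 CPM in pLKO.1 libraries and at 416, 415 and 409 CPM in sh6A+6B libraries, a log2 fold change of -0.15 (SE 0.02, 95% interval -0.18 to -0.11). ALDH1L2 was at 15.6, 16.5 and 15.8 CPM against 16.7, 15.4 and 16.3 CPM, and these groups overlapped (log2 fold change 0.01, 95% interval -0.07 to 0.10). Its interval in the GSK-J4 experiment of the same line was 1.29 to 1.63. PHGDH (-0.05), MTHFD2 (-0.07), MTHFD1L (0.03), SHMT2 (-0.17) and PSPH (0.12) all had intervals below those measured with GSK-J4. The 2 experiments were normalised as separate tables, and the difference between them was not tested. The untreated level of ALDH1L2 also differed between those tables, at 6.62 ± 0.912 CPM in 2102EP-C1 control and 16.0 ± 0.482 CPM in pLKO.1 libraries (SD, n = 3).

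Cisplatin alone gave no call in the GSK-J4 experiments and 1 in vector cells. In NT2/D1-A4 cells limma-trend called 0 of 9, with 2.45% of all genes called in either direction, and voom called 0. Of the set, 3 genes had an unadjusted p under 0.05, as had 4051 of 16431 genes. SHMT2 had the largest difference there, at 77.3, 74.9 and 78.7 CPM in control and 65.2, 69.3 and 65.7 CPM with cisplatin (log2 fold change -0.21, SE 0.04, adjusted p = 0.00149), short of the 1.3-fold limit. In the 2102EP-C1 GSK-J4 experiment 0 of 10 were called by limma-trend and by voom, against 1.07% of all genes. Of the set, 2 had an unadjusted p under 0.05, as had 2852 of 17035 genes. In pLKO.1 cells all 10 genes were below their untreated level with an adjusted p under 0.05, by 0.06 to 0.49 on the log2 scale, and the median was -0.22 where that of all genes was 0.00. In this comparison 7302 of 16459 genes had an unadjusted p under 0.05 in either direction. That is an unlike threshold, and the share of all genes lower at an adjusted p under 0.05 is not reported here. Only PYCR1 passed the 1.3-fold limit. It was at 20.7, 20.2 and 20.2 CPM in untreated and 13.98, 15.1 and 14.3 CPM in cisplatin-treated pLKO.1 libraries (log2 fold change -0.49, SE 0.05, adjusted p = 1.78e-08). That 1 of 10 stands beside 0.462% of all genes called lower.

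The next differences in pLKO.1 cells were those of SHMT2 (-0.32, SE 0.02), PSAT1 (-0.27, SE 0.02), ALDH1L2 (-0.26, SE 0.04) and PHGDH (-0.24, SE 0.02), and the smallest were SHMT1 (-0.07, SE 0.02) and ALDH18A1 (-0.06, SE 0.02). In the other 2102EP-C1 experiment the same cisplatin dose gave -0.09 (SE 0.05) for SHMT2, -0.07 (SE 0.04) for PSAT1 and -0.19 (SE 0.07) for PYCR1. The knockdown libraries were sequenced more deeply and each gene's standard error was smaller there. The difference between the experiments was not tested.

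When GSK-J4 preceded cisplatin, most of the set was above the untreated level. Against untreated cells, the combination raised 6 of 9 genes in NT2/D1-A4 (15.9% of all genes were called higher) and 7 of 10 in 2102EP-C1 (12.8% of all genes). MTHFD1L was short of the limit in NT2/D1-A4 (log2 fold change 0.35, SE 0.04) and reached 0.41 and the limit when library sizes were scaled without TMM. In 2102EP-C1 MTHFD1L was called (0.42, SE 0.04) and PYCR1 was not (0.35, SE 0.07), and without combination replicate 2 PYCR1 reached 0.41 and was called. Among cisplatin-treated cells, those pretreated with GSK-J4 had 7 of 9 genes higher in NT2/D1-A4 (12.8% of all genes called higher) and 8 of 10 in 2102EP-C1 (10.5% of all genes). In this comparison PYCR1 was called, at 15.8, 15.6 and 15.5 CPM with cisplatin and 25.3, 20.8 and 22.5 CPM in the combination (log2 fold change 0.54, SE 0.07, adjusted p = 8.31e-07). ALDH18A1 was at 192, 191 and 189 CPM with cisplatin and 164, 166 and 169.8 CPM in the combination, a log2 fold change of -0.19 (SE 0.03, adjusted p = 4.49e-06) within the limit. The comparisons of a line share control libraries, so their values stand side by side and are not independent of each other.

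The step from GSK-J4 alone to the combination was measured in each line, and the difference between the lines was not tested. In NT2/D1-A4 cells cisplatin after GSK-J4 moved no gene past the thresholds by limma-trend or voom (0 of 9, with 0.377% of all genes called). Of the set, 3 genes had an unadjusted p under 0.05, as had 2403 of 16431 genes. Of the 9 differences 8 were negative, and all ran from -0.12 to 0.08. In 2102EP-C1 cells 9 of 10 were positive. ALDH1L2 was called, at 19.3, 18.6 and 17.0 CPM with GSK-J4 and 25.7, 23.7 and 22.3 CPM in the combination (log2 fold change 0.38, SE 0.08, adjusted p = 0.00234). That 1 of 10 stands beside 0.916% of all genes called higher, and the call was lost without GSK-J4 replicate 3 (0.33) or without combination replicate 1 (0.33). PSAT1 was at 646, 678 and 711 CPM with GSK-J4 and 928, 814 and 783 CPM in the combination, without overlap, and its log2 fold change was 0.31 (SE 0.04, adjusted p = 2.84e-05). MTHFD2 had the same size of difference (0.31, SE 0.04, adjusted p = 2.41e-05), with 409.8, 413 and 431 CPM against 576, 488 and 493 CPM. PSPH followed with 0.22 (SE 0.05, adjusted p = 0.00183). Combination replicate 1 was the highest library of its group for 8 of 10 genes, and the share of all genes for which it was highest is not reported here.

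Whether the cisplatin effect itself differed with GSK-J4 was tested as an interaction. Limma-trend and voom called 0 genes in either line, where 0.0426% of all genes were called in NT2/D1-A4 and 0.857% in 2102EP-C1. In NT2/D1-A4 no gene of the set had an unadjusted p under 0.05, where 1174 of 16431 genes did, and the values ran from -0.09 to 0.09. In 2102EP-C1 9 of 10 had an unadjusted p under 0.05, as had 2999 of 17035 genes, and 3 of the 10 had an adjusted p under 0.05. These were PSAT1 (0.37, SE 0.06, adjusted p = 0.00108), MTHFD2 (0.36, SE 0.06, adjusted p = 0.00134) and MTHFD1L (0.19, SE 0.05, adjusted p = 0.0392), all within the 1.3-fold limit. ALDH1L2 had the highest value, 0.38 (SE 0.12), with an adjusted p of 0.0766. PSAT1 and MTHFD2 were close to the limit, so that PSAT1 passed it without control replicate 2 (0.38), control replicate 3 (0.38), cisplatin replicate 1 (0.38), GSK-J4 replicate 3 (0.41), combination replicate 2 (0.39) or combination replicate 3 (0.42). MTHFD2 passed it without GSK-J4 replicate 3 (0.38), combination replicate 2 (0.40) or combination replicate 3 (0.39), and ALDH1L2 without combination replicate 3 (0.43). Other settings gave smaller values, down to 0.30 for PSAT1, 0.28 for MTHFD2 and 0.28 for ALDH1L2. The highest adjusted p of the interaction test over the settings was 0.00864 for PSAT1, 0.0098 for MTHFD2, 0.109 for MTHFD1L and 0.202 for ALDH1L2.

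**Figure D3:**
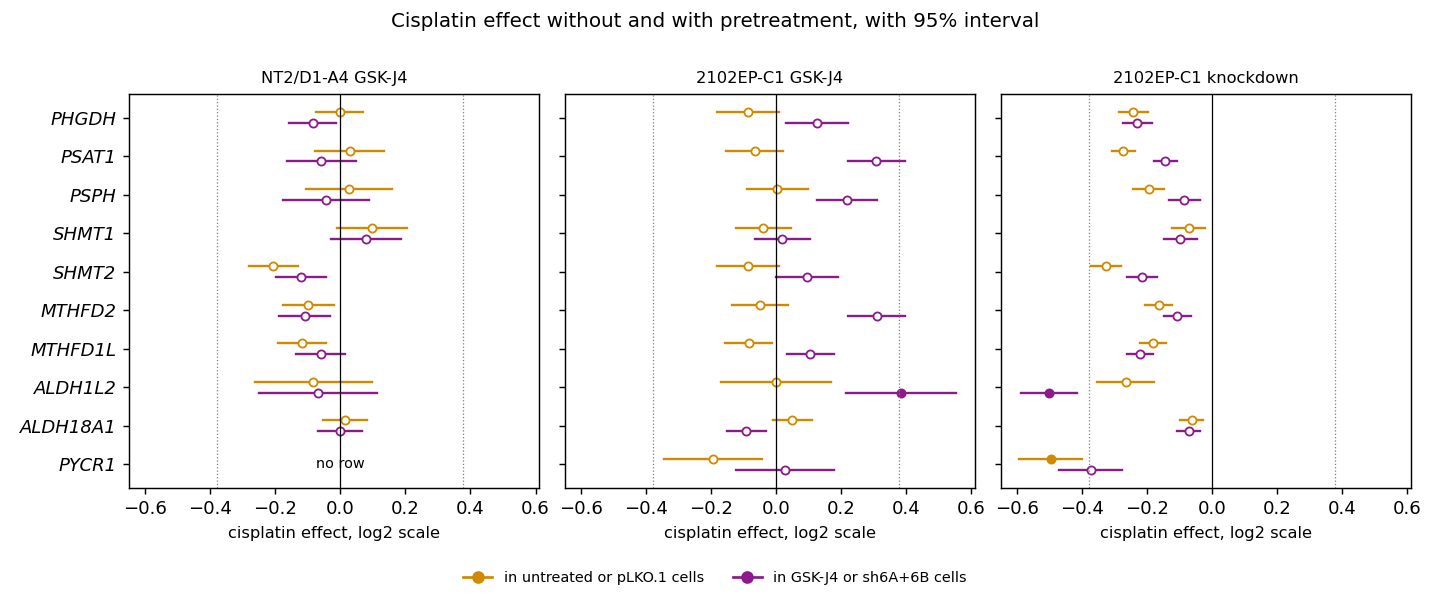
Cisplatin effect on each transcript (log2 difference with its 95% interval, 3 libraries against 3) without pretreatment (orange) and after GSK-J4 or with sh6A+6B (purple) in the 3 experiments. Filled points were called and dotted lines mark a 1.3-fold change: in 2102EP-C1 with GSK-J4 the purple points of PSAT1, MTHFD2 and ALDH1L2 sit at 0.31, 0.31 and 0.38, and in the knockdown experiment every point lies below 0.

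In sh6A+6B cells cisplatin again went with lower values. All 10 genes were below the untreated sh6A+6B level with an adjusted p under 0.05. In this comparison 8399 of 16459 genes had an unadjusted p under 0.05 in either direction. That is an unlike threshold, and the share of all genes lower at an adjusted p under 0.05 is not reported here. Of the set, 1 of 10 was called lower where 1.04% of all genes were. This was ALDH1L2, at 16.7, 15.4 and 16.3 CPM in untreated and 11.7, 10.98 and 11.4 CPM in cisplatin-treated sh6A+6B libraries (log2 fold change -0.50, SE 0.04, adjusted p = 1.05e-09). PYCR1 (-0.37, SE 0.05) was just inside the limit and passed it without sh6A+6B replicate 1 (-0.43) or without sh6A+6B cisplatin replicate 2 (-0.41). Against untreated pLKO.1 cells, sh6A+6B with cisplatin had 3 of 10 genes called lower (7.5% of all genes): ALDH1L2 (-0.49, SE 0.04), PYCR1 (-0.44, SE 0.05) and SHMT2 (-0.38, SE 0.02). The call of SHMT2 was marginal and was lost without pLKO.1 replicate 1 or 3, without sh6A+6B cisplatin replicate 1 or 3, or without TMM, at values from -0.38 to -0.36.

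Among cisplatin-treated cells, sh6A+6B against pLKO.1 gave 0 calls of 10 by limma-trend and voom, with 15.2% of all genes called in either direction. An unadjusted p under 0.05 was found for 10723 of 16459 genes and 5 of the set, and these 5 kept an adjusted p under 0.05. The interaction likewise gave 0 calls of 10 by both tools, with 3.77% of all genes called. An unadjusted p under 0.05 was found for 7088 of 16459 genes, among them 4 of the set. Those 4 kept an adjusted p under 0.05 with small values. For PSAT1 (0.13, SE 0.02), PSPH (0.11, SE 0.03) and SHMT2 (0.11, SE 0.03) the cisplatin effect was less negative in sh6A+6B cells. For ALDH1L2 (-0.23, SE 0.06) it was more negative.

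Neighbouring pathways were described from lists written for this purpose, by their counts with GSK-J4 alone, beside the shares of all genes called (13.8% higher and 6.48% lower in NT2/D1-A4, 7.79% and 3.12% in 2102EP-C1), and by their median beside that of all genes (0.01 and 0.00). The other folate enzymes and carriers had 4 of 17 genes called higher and 1 lower in NT2/D1-A4 (median 0.05), and 2 of 18 higher in 2102EP-C1 (median -0.02), counts that for lists of this size lie near the shares of all genes in 2102EP-C1 and, for the lower call, in NT2/D1-A4. MTHFD1, the cytosolic enzyme that takes up the formate, was at 318 to 363 CPM over all NT2/D1-A4 libraries and had log2 fold changes of -0.14 (SE 0.03) and -0.12 (SE 0.03). MTHFD2L, the close relative of MTHFD2, had 0.05 (SE 0.10) and 0.00 (SE 0.11). ALDH1L1, the cytosolic relative of ALDH1L2, was called higher in both lines (1.78, SE 0.24 and 0.73, SE 0.22), but from under 2 CPM.

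Purine synthesis is a main user of folate-bound carbon. None of its 12 genes was called higher in either line, PFAS (-0.51, SE 0.05) and PRPS2 (-0.44, SE 0.04) were called lower in NT2/D1-A4, and the list medians were -0.15 and -0.15. The methionine cycle had 1 gene higher and 1 lower of 7 in NT2/D1-A4 and 2 of 8 higher in 2102EP-C1, with medians of -0.15 and -0.02. BHMT, which remakes methionine from homocysteine, was the gene called higher in both (1.81, SE 0.34 and 0.79, SE 0.12), and MAT2A, which makes the methyl donor, was the gene called lower in NT2/D1-A4 (-0.56, SE 0.04).

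Genes that use serine and glycine had 3 of 13 called higher in NT2/D1-A4 and 1 of 13 in 2102EP-C1, with medians of 0.14 and 0.01. CTH, which makes cysteine from a serine-derived precursor, was higher in both (1.68, SE 0.05 and 0.67, SE 0.05), and GLDC, the glycine-cleaving enzyme, had 0.14 (SE 0.03) and -0.17 (SE 0.04). Among the other proline and glutamate enzymes 7 of 16 were called higher in NT2/D1-A4 and 5 of 16 in 2102EP-C1, and none lower, with medians of 0.26 and 0.07. GPT2, the mitochondrial alanine aminotransferase, had 0.97 (SE 0.04) and 0.54 (SE 0.04), and P4HA2, a collagen prolyl hydroxylase, 1.12 (SE 0.06) and 0.67 (SE 0.06). PYCR3, a relative of PYCR1, was not called (-0.27, SE 0.08 and -0.34, SE 0.11). ASNS, the asparagine synthetase, was called higher (1.39, SE 0.36 and 0.95, SE 0.27), but it was at 0.0971 to 1.48 CPM over all libraries of both lines and overlaps the annotated gene CZ1P-ASNS, so its level is uncertain.

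With sh6A+6B alone, where 12.1% of all genes were called, these lists had 1 of 12 lower for serine and glycine use, 1 of 18 higher for folate, 0 of 12 for purines, 1 of 8 lower for methionine and 0 of 16 for proline and glutamate, with medians from -0.06 to 0.04.

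Markers of the ATF4 arm had the highest list medians with GSK-J4 alone, 1.94 in NT2/D1-A4 (8 of 10 called higher) and 1.44 in 2102EP-C1 (9 of 10). TRIB3, a pseudokinase induced downstream of ATF4 and CHOP, had 2.87 (SE 0.09) and 3.00 (SE 0.07), and DDIT3, the gene of CHOP, 2.04 (SE 0.10) and 2.31 (SE 0.09). ATF4 RNA itself had 0.38 (SE 0.03) and 0.30 (SE 0.03) and was not called. The summed level of the 10 markers was 242 to 249 CPM in control and 467 to 483 CPM in GSK-J4 libraries of NT2/D1-A4, and 277 to 287 CPM against 506 to 548 CPM in 2102EP-C1. It was 555 to 649 CPM in the combination of 2102EP-C1 and 429 to 438 CPM in that of NT2/D1-A4. Across the knockdown libraries it was 359 to 365 CPM in pLKO.1, 330 to 339 CPM with cisplatin, 395 to 407 CPM in sh6A+6B and 377 to 392 CPM in sh6A+6B with cisplatin. With sh6A+6B alone 2 of 10 were called higher, CHAC1 (0.40, SE 0.11) and NUPR1 (0.58, SE 0.19), where 1044 of 16459 genes were called higher. Without the fold limit 6 of the 10 markers were higher and 0 lower at an adjusted p under 0.05, and TRIB3 had -0.07 (SE 0.04). Over all genes, 9503 of 16459 had an unadjusted p under 0.05 in either direction. The share at an adjusted p under 0.05 is not reported here, so nothing is drawn from the 6 of 10. The part of ATF4 activity in the enzymes' differences was not tested.

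**Figure D4:**
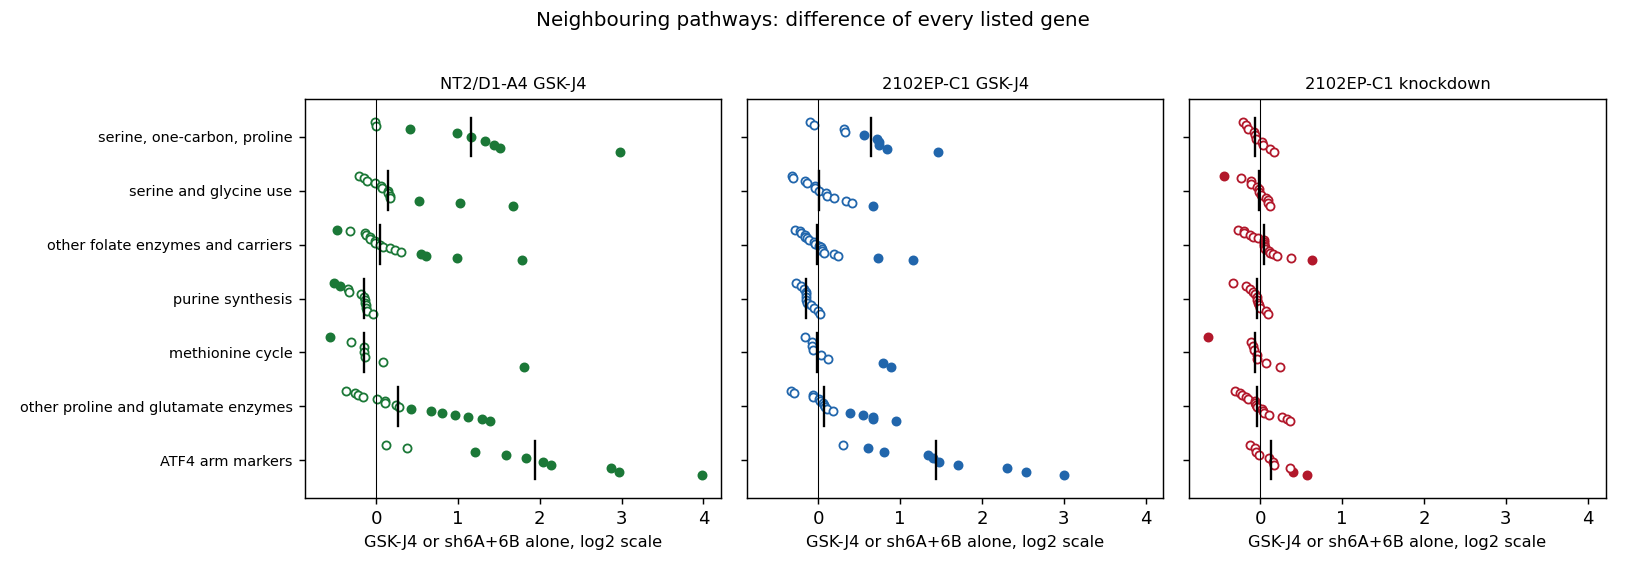
Log2 difference with GSK-J4 or sh6A+6B alone for every measured gene of 7 lists, with the black bar at the list median and filled points called, in the 3 experiments (3 libraries against 3, same axis). The serine, one-carbon and proline enzymes and the ATF4 arm markers have medians of 1.16 and 1.94 in NT2/D1-A4 and 0.64 and 1.44 in 2102EP-C1, the purine list has -0.15 in both, and in the knockdown experiment these 3 lists have medians of -0.06, 0.13 and -0.05.

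Most of the genes shared a profile over the libraries. Over the 12 libraries of the NT2/D1-A4 experiment, each of PHGDH, PSAT1, PSPH, SHMT2, MTHFD2, MTHFD1L and ALDH1L2 had a Pearson correlation of 0.93 to 0.98 with the mean profile of the other measured genes, SHMT1 had -0.05 and ALDH18A1 -0.41. In the 2102EP-C1 GSK-J4 experiment the same 7 had 0.97 to 0.99 and PYCR1 0.92, and ALDH18A1 had -0.95 and SHMT1 -0.64. Over the 12 knockdown libraries PHGDH (0.97), PYCR1 (0.96) and MTHFD1L (0.95) followed the mean most closely and ALDH18A1 least (0.17). These values are descriptions, because the libraries of a group share a treatment.

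The genes outside the set with the most similar profile over the same 12 libraries, among those with a mean log2 CPM of at least 1, were named by the correlation alone. In NT2/D1-A4 cells they were CHST3, PLD3, WWC3, CUL7 and SLC7A5 (0.99 each), and SLC7A5, a carrier of large neutral amino acids, went from 233 to 477 CPM on average with GSK-J4. In 2102EP-C1 cells with GSK-J4 they were GPT2 (0.996), EIF1 (0.995), PCK2 (0.995), CARS1 (0.994) and SQSTM1 (0.991). PCK2, which makes phosphoenolpyruvate in mitochondria, went from 6.97 to 20.7 CPM with GSK-J4 and was at 25.4 CPM in the combination. For the knockdown libraries YARS1 (0.99), SSRP1 (0.99), SRSF4 (0.99) and GARS1 (0.98) were among the nearest, and GARS1, the glycyl-tRNA synthetase, went from 539 to 458 CPM with cisplatin in pLKO.1 cells.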

How the data were processed

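RNA-seq of 36 libraries was analysed from 3 gene tables. The authors' pipeline was Trimmomatic, then STAR on GRCh38.p14, then featureCounts, a stated minimum of 0.5 CPM in 2 or more samples, and TMM. On the recovered scale 15964 of 16431, 16492 of 17035 and 16273 of 16459 genes met that minimum. Tool versions are not given in the sources used here. The values deposited by the authors are log2 CPM at TMM-scaled library sizes with a prior count of 3. Solving that formula gave reads within 0.05 of a whole number for 100% of values under 50 reads, and CPM was computed from those reads.

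Each table was fitted with limma-trend (limma 3.58.1, R 4.3.3) using all 12 libraries, group means and no block, and two-sided p-values were adjusted over all genes (Benjamini-Hochberg). Fold changes are therefore on the scale of log2 CPM with the prior count and understate changes of low genes. The fit was tested on simulated data. The genes, the lists and the motif were chosen with earlier results of these data known. All genes of the set were tested and counted in every comparison and could be named in any of them, and other genes were named only from the lists, as knockdown targets or as the 5 nearest profiles, except that some genes of the lists and profiles are not reported here. Alternatives were the fold limit, a filter on low values, the groups fitted, a replicate block, scaling without TMM, a prior count of 0.5, voom and leaving out each library. Precision is limited by 3 libraries per group.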

Additional observations from a re-analysis of the deposited data

Results flagged for a closer look

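In 7 cases the cisplatin effect on a gene differed with against without the pretreatment, by the interaction test of limma-trend at an adjusted p under 0.05 and without a limit on the fold change. In 2102EP-C1 cells with GSK-J4 these were PSAT1 (log2 difference 0.37, adjusted p = 0.00108), MTHFD2 (0.36, adjusted p = 0.00134) and MTHFD1L (0.19, adjusted p = 0.0392). In the knockdown experiment they were PSAT1 (0.13, adjusted p = 0.000175), PSPH (0.11, adjusted p = 0.0109), SHMT2 (0.11, adjusted p = 0.00774) and ALDH1L2 (-0.23, adjusted p = 0.00276). Over all genes, the interaction had an unadjusted p under 0.05 for 2999 of 17035 with GSK-J4 in 2102EP-C1 and 7088 of 16459 with the knockdown. The share of all genes at an adjusted p under 0.05 is not reported here. Without GSK-J4 the cisplatin effect of PSAT1, MTHFD2 and MTHFD1L was -0.07, -0.05 and -0.08, none with an adjusted p under 0.05, and with GSK-J4 it was 0.31, 0.31 and 0.11. Over the alternative settings the adjusted p of the MTHFD1L interaction test rose as high as 0.109. Groups of 3 libraries are too small for the test of single outlying libraries, and none was run.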

How the results depend on the processing

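The number of genes called was recomputed for 18 comparisons. Over 6 settings (only the groups compared, a log2 value over 1 in every sample, the replicate block, scaling without TMM, a prior count of 0.5 and voom) it was equal in 103 of 105 recounts. The exceptions were scaling without TMM, with 7 in place of 6 for the NT2/D1-A4 combination and 2 in place of 3 for sh6A+6B with cisplatin against untreated pLKO.1. Without a limit on the fold change the counts were 2 for cisplatin alone in NT2/D1-A4, and in 2102EP-C1 with GSK-J4 6 for cisplatin after GSK-J4 and 3 for the interaction. They were then also 7 in place of 6 for the NT2/D1-A4 combination, and in 2102EP-C1 8 in place of 6 for GSK-J4 alone, 9 in place of 7 for the combination and 9 in place of 8 for GSK-J4 within cisplatin-treated cells. In the knockdown experiment they were then 10 for cisplatin alone, 6 for sh6A+6B alone, 9 for sh6A+6B with cisplatin against untreated, 10 for cisplatin within sh6A+6B cells, 5 for sh6A+6B within cisplatin-treated cells and 4 for the interaction. The shares of all genes without that limit are not reported here. Leaving out each library in turn gave an equal count in 200 of 216 recounts. The counts then ranged from 0 to 1 for cisplatin after GSK-J4 in 2102EP-C1, from 0 to 3 for the interaction there, from 6 to 7 for GSK-J4 alone, from 7 to 8 for the combination, from 2 to 3 for sh6A+6B with cisplatin against untreated and from 1 to 2 for cisplatin within sh6A+6B cells. For single genes, 7 of 3103 recomputed differences lost a call, 15 gained it and 0 reversed past the threshold, while 60 near 0 changed sign with neither value significant. In the fit with the replicate block the counts were equal to those without it in all 18 comparisons (7 and 6 for GSK-J4 alone). Same-numbered libraries did not deviate together (correlations of -0.09 to 0.08, -0.06 to 0.04 and -0.04 to 0.12), and 4, 3 and 7 of 12 libraries correlated best with their own number, so the numbers were not used as pairs.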
